A study of Mus musculus with 8 samples.

Results

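Cholesterol and fatty acid synthesis and export were followed through 42 genes in CLPs (common lymphoid progenitors), mouse marrow cells from which B, T and natural killer cells can arise. The genes were taken from a fixed list of symbols, matched to the Ensembl gene ID of each of 8 RNA sequencing libraries, and made up 42 of the 39179 gene IDs listed per library. They comprised 7 mevalonate enzymes, 11 squalene and sterol enzymes, 5 SREBP factors and regulators, 11 fatty acid enzymes, 4 genes of liver X receptor (LXR) regulation and export, and 4 genes of intracellular transport and storage. All 8 libraries were of C57BL/6 bone marrow origin, sorted through a gate labelled Lin-Flk2+IL7R+CD27+Ly6d-. The 4 ex vivo CLP libraries were made from freshly isolated cells, and the 4 cCLP libraries from cells kept for 2 months in culture on OP9 cells, a mouse bone marrow stromal line, with Flt3L and a low dose of IL-7. Ages, sexes, animals, cultures and batches are not given in the sources used here, so p-values measure only the spread between these libraries, which may be technical. The comparison asks how lipid gene expression differed between cultured and freshly sorted progenitors.

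Cholesterol is built from acetyl-CoA through mevalonate, isoprenoids, squalene and lanosterol, and most of the enzyme genes are targets of the transcription factor SREBP2. SREBP1 acts mainly on genes of fatty acid synthesis and desaturation. Scap escorts both factors to the Golgi for cleavage, and Insig proteins hold Scap in the endoplasmic reticulum when sterols are abundant. The LXR receptors, bound by oxysterols, switch on cholesterol export through Abca1 and Abcg1 and also transcription of Srebf1. Low cell sterol therefore raises the SREBP2 program, while high sterol favours the LXR program.

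Promoters of 4 genes are shown, from 2 sterol pathway enzymes, a fatty acid enzyme and an exporter whose values are given below. Each sequence is the RefSeq reference of GRCm38.p6, from 250 bases before to 50 after the gene start, 5′ to 3′ on the gene's strand. Capitals mark CCAAT, the NF-Y box that commonly accompanies SREBP sites, read on either strand (ATTGG on the other), and the sterol regulatory element TCACNCCAC. In Fasn, 2 of the 3 boxes overlap in the run CCAATTGG. Hmgcs1, Msmo1 and Fasn hold CCAAT boxes, and Abca1 holds neither motif. They lie at chr13:119690101-119690400 on the plus strand (Hmgcs1), chr8:64733529-64733828 on the minus strand (Msmo1), chr11:120824498-120824797 on the minus strand (Fasn) and chr4:53159846-53160145 on the minus strand (Abca1).
Hmgcs1: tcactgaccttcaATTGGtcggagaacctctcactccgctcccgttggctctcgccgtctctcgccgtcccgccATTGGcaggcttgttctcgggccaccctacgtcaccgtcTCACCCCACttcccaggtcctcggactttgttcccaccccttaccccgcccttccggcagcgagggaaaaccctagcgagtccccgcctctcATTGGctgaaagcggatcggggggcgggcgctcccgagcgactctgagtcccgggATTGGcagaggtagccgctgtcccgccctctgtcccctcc
Msmo1: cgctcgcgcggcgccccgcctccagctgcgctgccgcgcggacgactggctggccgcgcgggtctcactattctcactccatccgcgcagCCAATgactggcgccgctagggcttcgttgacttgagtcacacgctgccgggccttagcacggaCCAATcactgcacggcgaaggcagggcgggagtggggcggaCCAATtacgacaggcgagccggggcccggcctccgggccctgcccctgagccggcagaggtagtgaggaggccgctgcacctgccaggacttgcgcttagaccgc
Fasn: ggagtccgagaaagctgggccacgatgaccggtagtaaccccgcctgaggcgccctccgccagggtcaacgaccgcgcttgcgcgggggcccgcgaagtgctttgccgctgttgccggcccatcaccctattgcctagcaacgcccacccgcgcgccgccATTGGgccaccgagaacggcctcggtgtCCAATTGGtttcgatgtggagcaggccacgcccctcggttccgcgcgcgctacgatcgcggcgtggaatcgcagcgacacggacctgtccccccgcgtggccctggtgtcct
Abca1: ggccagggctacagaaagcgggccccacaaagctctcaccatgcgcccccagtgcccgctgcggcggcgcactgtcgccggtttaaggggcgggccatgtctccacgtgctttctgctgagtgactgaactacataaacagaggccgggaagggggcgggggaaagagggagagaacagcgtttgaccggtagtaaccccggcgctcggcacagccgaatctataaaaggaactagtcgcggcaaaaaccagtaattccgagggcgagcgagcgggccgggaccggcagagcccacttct

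Promoters were found for 33 of the 42 genes. CCAAT, on either strand, was present in 24 of the 33, in 14 of 15 mevalonate and sterol enzymes, in 4 of 8 fatty acid enzymes and in 2 of 5 export and transport genes. The same motif was in 41.1% of 27025 promoters of that length and in 43.3% of the 5182 promoters of tested genes. The GC box GGGCGG, bound by Sp1 family factors, was in 25 of the 33, against 38.2% of all promoters and 70.8% of those of tested genes. The E-box CACGTG was in 7 of the 33, against 8.09% and 13.1%. The element TCACNCCAC was in 1 of the 33, Hmgcs1, against 1.44% and 1.49%. With 1 of its fixed bases freed, TCACNCNAC was in 2, TCANNCCAC in 3 and TCACNNCAC in 4 of the 33, counts that each include Hmgcs1. Their shares were 3.15%, 4.78% and 4.37% of all promoters and 3.57%, 4.55% and 4.50% of those of tested genes. These are matches of letters in a short window.

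The deposited value of each gene was a whole number on a scale that no label names and that varied less between libraries than read counts can. It was treated as a score, so depth is unknown, and genes lacking signal are described as listed at 0. Values below were divided by a library factor and are called scaled values. They can be compared between libraries for the same gene, not between genes. The sums of the deposited values ranged from 378594 to 704305 per library, with 11371 to 12779 genes above 0.

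Of the 8 libraries, 2 did not lie with the group of their label. Across genes, the library labelled ex vivo CLP 2 had Spearman correlations of 0.965 to 0.986 with cCLP 2, 3 and 4 and of 0.76 to 0.83 with the rest of its labelled group. For the library labelled cCLP 1 they were 0.949 to 0.977 with ex vivo CLP 1, 3 and 4 and 0.810 to 0.820 with the rest of the cCLP group. Results are therefore given over all 8 libraries as labelled and over 6 libraries without these 2. The retained ex vivo libraries are ex vivo CLP 1, 3 and 4, the retained cCLP libraries are cCLP 2, 3 and 4, and values are given in that order. The set-aside libraries are those labelled ex vivo CLP 2 and cCLP 1, also in that order. No library was moved to the other group, and the p-values over 6 libraries hold only given that choice. Whether the labels of these 2 libraries were exchanged was not tested; if they were, the values over 8 libraries and those of the set-aside libraries would carry the wrong group. Of the gate genes, Ly6d, which the gate excludes, had scaled values of 29.4 to 35.6 in the retained ex vivo libraries and of 0.838 to 1.06 in the retained cCLP libraries. Il7r, which the gate requires, had 17.2 to 73.7 and 195 to 226 in the same libraries. Flt3, which encodes Flk2, had 207 to 256 and 270.5 to 279 (limma adjusted p = 0.082), and Cd27 had 76.2 to 103 and 72.3 to 83.2 (0.32).

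Over the 8 libraries as labelled, 0 of the 29 tested lipid genes were higher and 0 lower in cCLP at an adjusted p below 0.05 in limma, where 0% of the 6580 genes tested were called higher and 0% lower. Before adjustment, 5 of the 29 had p below 0.05, as had 510 of all genes (7.75%). In order of p, these 5 were Srebf1, Fasn, Fads2, Fads1 and Srebf2, with log2 fold changes of 0.42, 0.79, 0.59, 0.41 and 0.31, each with a limma adjusted p of 0.482. All 5 had the higher mean in cCLP. The median log2 fold change was 0.37 over the 29 and -0.01 over all genes tested. In Srebf1 and Stard4, each cCLP library exceeded each ex vivo CLP library, 2 of the 42 genes, of which Srebf1 was tested. Among all tested genes, 1.75% were separated in that direction and 1.7% in the other.

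**Figure D1:**
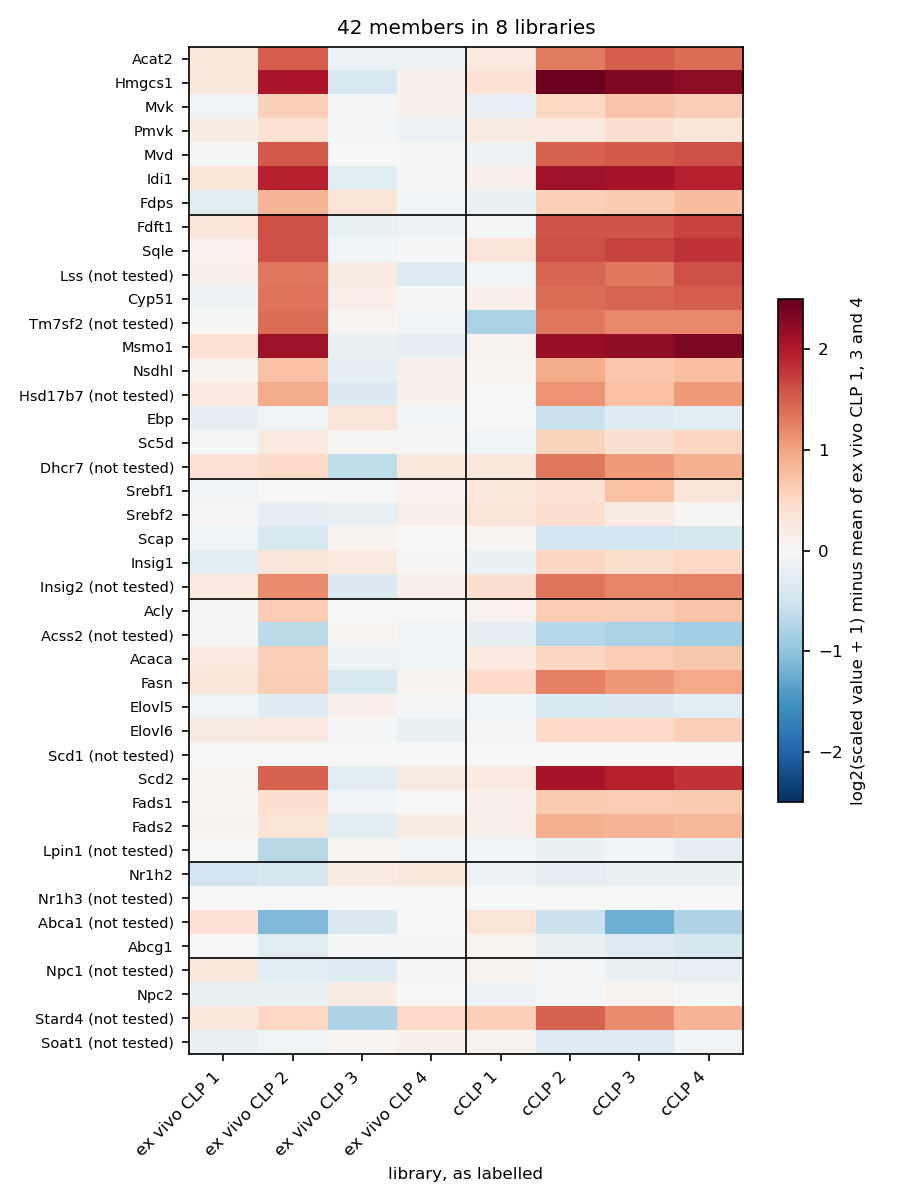
Each row is 1 of the 42 genes, each column 1 of the 8 libraries as labelled, and colour is log2(scaled value + 1) minus the mean of ex vivo CLP 1, 3 and 4; horizontal lines separate the 6 role groups and "not tested" marks genes below the minimum value over 6 libraries. The library labelled ex vivo CLP 2 shares the colours of cCLP 2, 3 and 4 in the mevalonate and sterol rows, and the library labelled cCLP 1 those of ex vivo CLP 1, 3 and 4.

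Over the 6 libraries, 12 of the 14 tested mevalonate and sterol enzymes and 7 of the 8 tested fatty acid enzymes were higher in the retained cCLP libraries, and the exporter gene Abcg1 and the escort gene Scap were lower. Of the 29 tested genes, 21 were higher, 3 were lower (Scap, Elovl5 and Abcg1) and 5 did not pass (Pmvk, Ebp, Srebf2, Nr1h2 and Npc2). Among the 6622 genes tested, 20.7% were called higher and 22.4% lower. Of the 29, 10 rose at least 2-fold, as did 320 of all genes (4.83%). The median log2 fold change was 0.65 over the 29 and -0.001 over all genes tested. Of the 29, 5 (Mvk, Mvd, Sqle, Msmo1 and Acaca) met the minimum value through the retained cCLP libraries alone, where they were high. They are 4 of the 12 mevalonate and sterol enzymes and 1 of the 7 fatty acid enzymes called higher. Fdft1, Nsdhl and Idi1, also called higher, reached 10 in only some of the retained ex vivo libraries. They met the minimum only with the retained cCLP libraries, where they were high. These genes and the 5 above therefore lend no support to the counts and medians. Without overlap between the groups, 22 of the 29 were higher and 4 lower, where 27.6% and 28.3% of all tested genes were. Over all 42 genes, 28 were higher and 7 lower without overlap. Of these, 6 and 3 were untested genes, and no share over untested genes was computed.

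**Figure D2:**
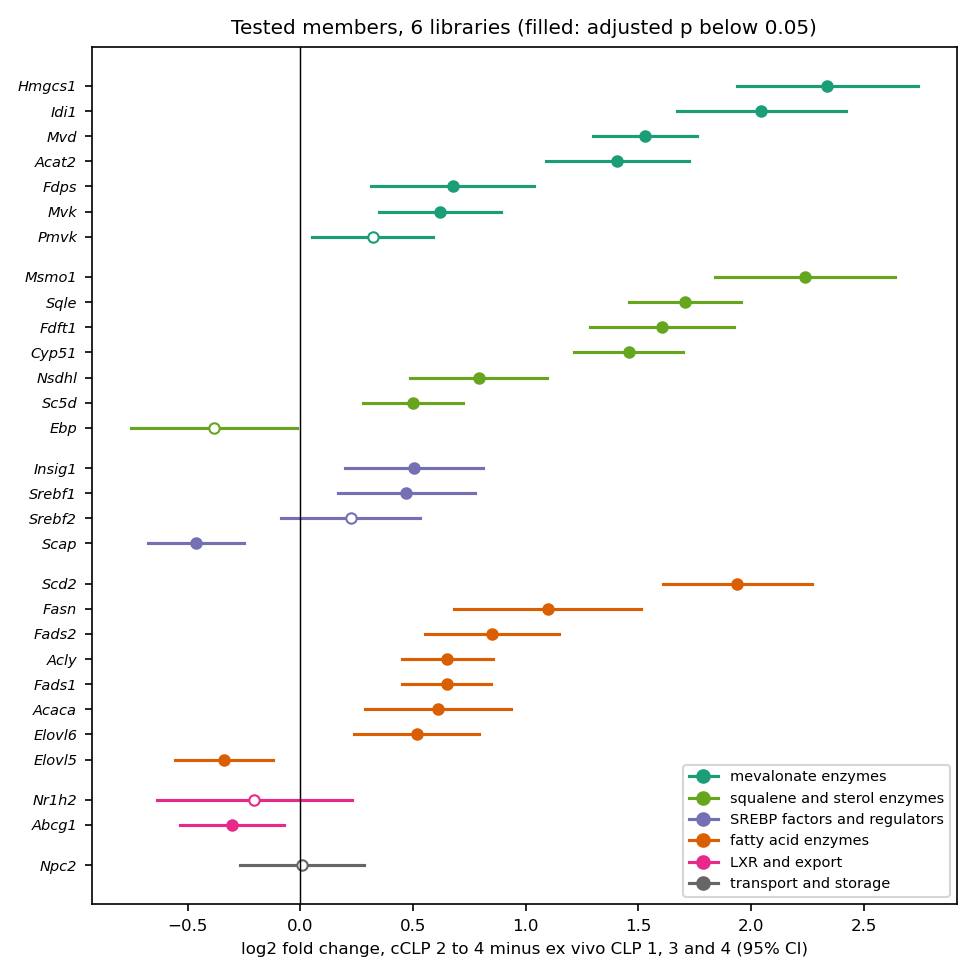
Points are log2 fold changes of the 29 tested genes over 6 libraries, cCLP 2, 3 and 4 minus ex vivo CLP 1, 3 and 4, on the scale log2(scaled value + 1), and bars are 95% confidence intervals; filled points have an adjusted p below 0.05 and colours give the role group. Hmgcs1, Msmo1 and Idi1 lie farthest to the right, above 2, and Scap, Elovl5 and Abcg1 are the filled points to the left of 0.

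The mevalonate enzymes turn acetyl-CoA into farnesyl diphosphate. All 7 were tested, 6 rose and 0 fell, and their median log2 fold change was 1.41. Hmgcs1, the HMG-CoA synthase, had scaled values of 16.9, 10.2 and 15.1 in the retained ex vivo libraries and of 79.7, 72.6 and 68.8 in the retained cCLP libraries. Its values were 59.5 and 18.1 in the 2 set-aside libraries, so the groups as labelled overlapped while the 6 libraries did not. The change over 6 libraries was 2.34 ± 0.174 on the log2 scale (SE, n = 3 and 3, limma adjusted p = 2.88e-05), a 5.05-fold difference.

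Idi1, the isopentenyl diphosphate isomerase, had values of 14.5, 8.89 and 10.8 in the retained ex vivo libraries, of 52.1, 49.7 and 46.1 in the retained cCLP libraries, and of 44.9 and 12.35 in the 2 set-aside libraries. The lowest retained cCLP value was far above the highest retained ex vivo value, and the log2 fold change was 2.05 ± 0.162 (SE, limma adjusted p = 4.06e-05). Mvd, which decarboxylates mevalonate diphosphate, had 6.04, 6.35 and 6.46 in the retained ex vivo libraries, 19.1, 20.1 and 21.0 in the retained cCLP libraries, and 20.2 and 5.70 in the 2 set-aside libraries. The log2 fold change was 1.53 ± 0.10 (SE, limma adjusted p = 1.37e-05). The deposited whole numbers of Mvd in the retained ex vivo libraries were only 5, 5 and 9, too coarse to judge how close those values were. Acat2, the cytosolic thiolase that starts the pathway, rose by 1.41 (log2), Fdps, the farnesyl diphosphate synthase, by 0.68 and Mvk, the mevalonate kinase, by 0.62. Pmvk, the phosphomevalonate kinase, had a log2 fold change of 0.32 with a 95% interval of 0.05 to 0.59 and did not pass (limma adjusted p = 0.0557). It passed without ex vivo CLP 1 (0.0138). Reads of Acat2 and of Fdps may be shared with the copy Acat3 and with pseudogenes, and how the authors' counting treated them is not given in the sources used here.

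The squalene and sterol enzymes close the ring and trim lanosterol to cholesterol. Of 11, 7 were tested, 6 rose and 0 fell, with a median log2 fold change of 1.46. Msmo1, the methylsterol monooxygenase, had values of 6.04, 3.81 and 3.59 in the retained ex vivo libraries, of 23.4, 23.9 and 26.0 in the retained cCLP libraries, and of 22.4 and 4.75 in the 2 set-aside libraries. The 2 sets of 3 stood far apart, with a log2 fold change of 2.24 ± 0.173 (SE, limma adjusted p = 3.54e-05). Sqle, the squalene epoxidase and a rate-limiting step, had 7.25, 6.35 and 6.46 in the retained ex vivo libraries, 22.3, 23.9 and 26.0 in the retained cCLP libraries, and 22.4 and 8.55 in the 2 set-aside libraries. Its log2 fold change was 1.71 ± 0.107 (SE, limma adjusted p = 1.11e-05). In the retained ex vivo libraries the deposited whole numbers were only 5, 3 and 5 for Msmo1 and 6, 5 and 9 for Sqle.

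Fdft1, the squalene synthase, had 10.9, 7.62 and 7.89 in the retained ex vivo libraries, 27.6, 27.7 and 30.2 in the retained cCLP libraries, and 28.1 and 8.55 in the 2 set-aside libraries. It rose by 1.61 ± 0.139 (log2, SE, limma adjusted p = 6.52e-05). Fdft1 overlaps Ctsb on the opposite strand, and the strand setting of the counting is not given in the sources used here; Ctsb itself fell by 1.22 (log2, limma adjusted p = 0.00046). Cyp51, the lanosterol demethylase, rose by 1.46, Nsdhl, a sterol dehydrogenase, by 0.79 and Sc5d, the sterol desaturase, by 0.50. Cyp51 overlaps Akap9 on the opposite strand. Ebp, the sterol isomerase, went the other way with a log2 fold change of -0.38 and a 95% interval of -0.75 to -0.02, and did not pass (limma adjusted p = 0.087); it passed without ex vivo CLP 1 (0.0303). Without overlap between the 6 libraries, Ebp was lower and the other 17 of the 18 mevalonate and sterol enzymes were higher. Of the 14 tested, 13 were higher and 1 lower in this way, against 27.6% and 28.3% of all tested genes.

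The remaining 4 sterol enzymes were below the minimum value of 10 in at least 3 libraries that a test required. Their ranges over ex vivo CLP 1, 3 and 4 against cCLP 2, 3 and 4 were 1.44 to 2.54 against 6.69 to 8.38 for Lss, the lanosterol synthase, and 2.15 to 2.54 against 6.69 to 7.44 for Tm7sf2, a sterol reductase. They were 1.27 to 2.42 against 3.82 to 5.32 for Hsd17b7, a ketosterol reductase, and 2.54 to 6.04 against 9.22 to 12.8 for Dhcr7, the enzyme of a last step to cholesterol. No range met its counterpart. With no minimum applied, all 4 were called higher in limma, with log2 fold changes of 1.46, 1.24, 0.97 and 1.09. The share of all genes called in that setting was not computed. In the retained ex vivo libraries the deposited whole numbers were only 2, 2 and 2 for Lss and 2, 2 and 3 for Tm7sf2. They were 2, 1 and 3 for Hsd17b7 and 5, 2 and 8 for Dhcr7. Such numbers are too coarse to judge how close those values were. Tm7sf2 shares sequence with Vps51 on the same strand.

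The SREBP factors and their regulators had smaller fitted changes. Of 5, 4 were tested, 2 rose and 1 fell, and the median log2 fold change was 0.35. Srebf2, which encodes SREBP2, had values of 19.3, 16.5 and 20.8 in the retained ex vivo libraries, of 25.5, 21.98 and 19.3 in the retained cCLP libraries, and of 15.7 and 23.8 in the 2 set-aside libraries. The groups overlapped, and the log2 fold change of 0.22 had a 95% interval of -0.08 to 0.53 (limma adjusted p = 0.213). The interval excludes a 2-fold change over these 6 libraries.

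Srebf1, which encodes SREBP1, had values of 16.9, 17.8 and 19.4 in the retained ex vivo libraries, of 23.4, 30.6 and 22.6 in the retained cCLP libraries, and of 17.9 and 21.9 in the 2 set-aside libraries. Every cCLP library was above every ex vivo CLP library, with the set-aside libraries counted by their labels. The log2 fold change was 0.47 ± 0.131 over 6 libraries (SE, limma adjusted p = 0.0217) and 0.42 ± 0.119 over 8 (adjusted p = 0.482). Without cCLP 3, the highest library, it was 0.34 and did not pass over the remaining 5 (limma adjusted p = 0.0677). Srebf1 overlaps Rai1 on the opposite strand.

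Insig1, the sterol-regulated anchor of Scap, had values of 48.4, 68.6 and 58.8 in the retained ex vivo libraries, of 85.0, 79.3 and 83.8 in the retained cCLP libraries, and of 71.8 and 51.3 in the 2 set-aside libraries. It rose by 0.50 ± 0.132 (log2, SE, limma adjusted p = 0.017), and did not pass without cCLP 2 (0.0583) or without cCLP 4 (0.0584). Scap had 26.6, 30.5 and 28.7 in the retained ex vivo libraries, 20.2, 20.1 and 21.0 in the retained cCLP libraries, and 21.3 and 29.4 in the 2 set-aside libraries. It fell by 0.47 ± 0.092 (log2, SE, limma adjusted p = 0.00492), opposite to the sterol enzymes. Insig2, the second anchor, was not tested and ranged from 1.27 to 2.42 in the retained ex vivo libraries and from 5.73 to 6.38 in the retained cCLP libraries.

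**Figure D3:**
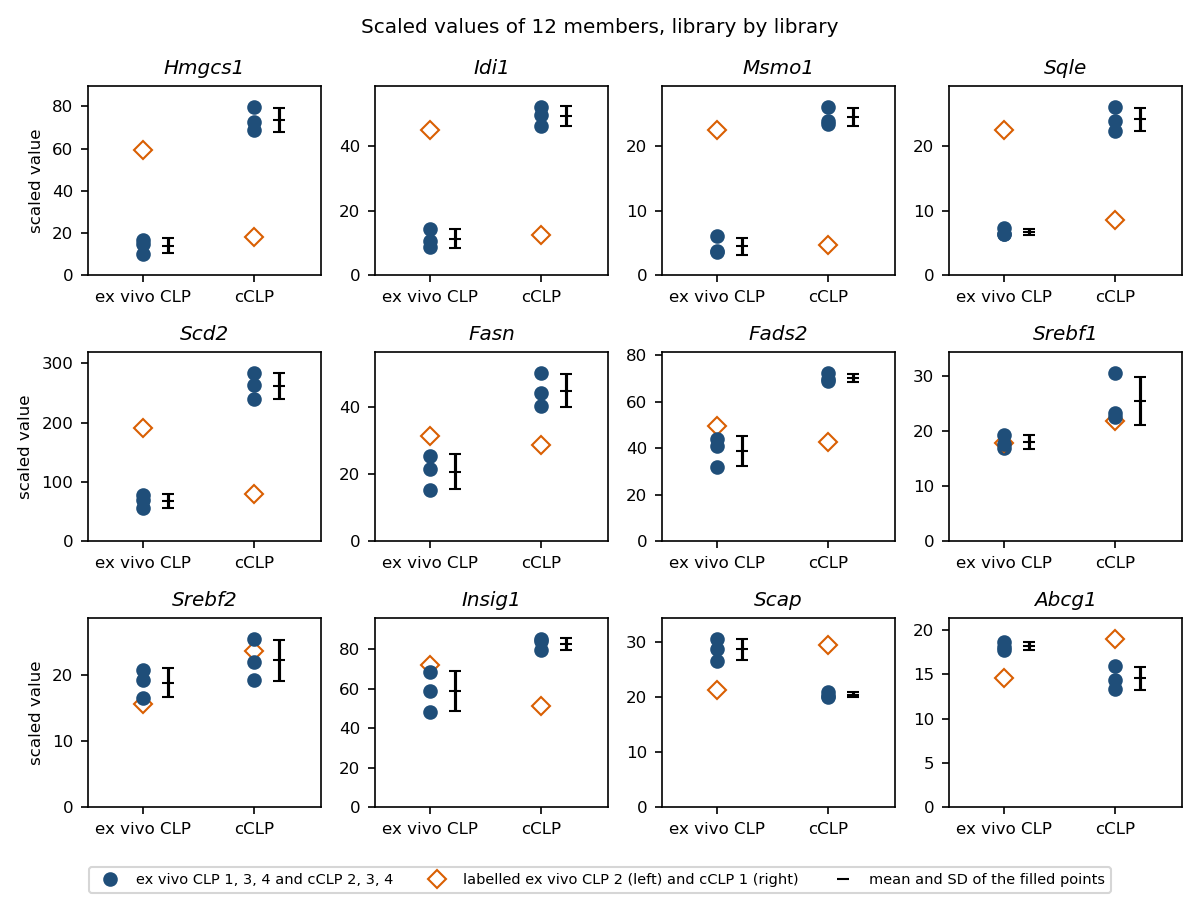
Scaled values of 12 genes, 1 panel per gene with its own axis from 0, plotted by label; filled points are ex vivo CLP 1, 3 and 4 and cCLP 2, 3 and 4, bars beside them are their mean and SD (n = 3), and open diamonds are the set-aside libraries, ex vivo CLP 2 on the left and cCLP 1 on the right. In Hmgcs1, Idi1, Msmo1 and Sqle the diamonds sit near the opposite group; in Srebf1 they sit with the group of their label, and in Fasn and Fads2 between or beside the ex vivo points.

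The fatty acid enzymes make acetyl-CoA and malonyl-CoA, extend them and add double bonds. Of 11, 8 were tested, 7 rose and 1 fell, with a median log2 fold change of 0.65. Scd2, a stearoyl-CoA desaturase, had values of 70.1, 55.9 and 78.9 in the retained ex vivo libraries, of 284, 264 and 239.8 in the retained cCLP libraries, and of 191 and 79.8 in the 2 set-aside libraries. It rose by 1.94 ± 0.143 (log2, SE, limma adjusted p = 2.82e-05). Its paralog Scd1 was listed at 0 in all 8 libraries, and the counting of reads that match both is not given in the sources used here.

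Fasn, the fatty acid synthase, had 25.4, 15.2 and 21.5 in the retained ex vivo libraries, 49.96, 44.0 and 40.2 in the retained cCLP libraries, and 31.4 and 28.5 in the 2 set-aside libraries. The last 2 lay between the groups, and the log2 fold change over the 6 was 1.10 ± 0.179 (SE, limma adjusted p = 0.00196). Fads2, a front-end desaturase of polyunsaturated fatty acids, had 41.1, 31.8 and 43.8 in the retained ex vivo libraries, 72.3, 69.8 and 68.8 in the retained cCLP libraries, and 49.4 and 42.8 in the 2 set-aside libraries. Its log2 fold change was 0.85 ± 0.128 (SE, limma adjusted p = 0.0013). Both set-aside libraries lay closer to the retained ex vivo libraries in Fads2.

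Acly, which makes cytosolic acetyl-CoA from citrate, rose by 0.65 (log2), Fads1, the other front-end desaturase, by 0.65, Acaca, the acetyl-CoA carboxylase, by 0.61 and Elovl6, which extends palmitate, by 0.52. Acaca did not pass without cCLP 4 (limma adjusted p = 0.0554). Elovl5, the elongase of polyunsaturated fatty acids, ranged from 62.9 to 72.4 in the retained ex vivo libraries and from 51.0 to 54.5 in the retained cCLP libraries. It fell by 0.34 (log2, limma adjusted p = 0.0214), and did not pass without cCLP 2 (0.0829), cCLP 3 (0.0787) or cCLP 4 (0.0555). Acss2, which makes acetyl-CoA from acetate, was not tested and ranged from 2.15 to 2.54 and from 0.838 to 1.06 in the same libraries. With no minimum applied it was called lower, with a log2 fold change of -0.79 (limma adjusted p = 0.00694). Its deposited whole numbers were only 2, 2 and 3 in the retained ex vivo libraries and 1 in each retained cCLP library. They are too coarse to judge the spread within a group. Acss2 overlaps Gss on the opposite strand. Lpin1, a phosphatidate phosphatase, was not tested and ranged from 5.74 to 6.35 and from 5.03 to 5.73, which nearly touch.

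The export genes did not rise with the synthesis genes. Of the 4 genes of LXR regulation and export, 2 were tested, 0 rose and 1 fell, with a median log2 fold change of -0.26. Abcg1, which passes cholesterol to lipoprotein particles, had values of 18.1, 17.8 and 18.7 in the retained ex vivo libraries, of 15.9, 14.3 and 13.4 in the retained cCLP libraries, and of 14.6 and 19.0 in the 2 set-aside libraries. It fell by 0.31 ± 0.10 (log2, SE, limma adjusted p = 0.0391). It did not pass in 7 of 15 alternatives, a replicate block among them: the limma adjusted p was 0.05001, 0.0586 and 0.0841 with ex vivo CLP 1, 3 or 4 left out, 0.117 and 0.153 with cCLP 3 or 4 left out, 0.181 with scaling to the library total and 0.124 with the block.

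Abca1, the exporter that loads apolipoproteins, was below the minimum and had 4.84, 2.54 and 3.59 in the retained ex vivo libraries, 2.13, 0.956 and 1.68 in the retained cCLP libraries, and 1.12 and 4.75 in the 2 set-aside libraries. The values are low, and the retained cCLP values were all below the retained ex vivo values. Deposited whole numbers were only 4, 2 and 5 in the retained ex vivo libraries and 2, 1 and 2 in the retained cCLP libraries. With no minimum applied, Abca1 was called lower, with a log2 fold change of -0.85 (limma adjusted p = 0.0305). In that setting, 6 of the 11 untested lipid genes above 0 in some library were called higher and 2 lower (Abca1 and Acss2). The share of all genes called in that setting was not computed, so these counts have nothing to be read against. Nr1h2, the LXR beta receptor, had 21.8, 35.6 and 36.6 in the retained ex vivo libraries, 25.5, 26.8 and 26.8 in the retained cCLP libraries, and 22.4 and 27.6 in the 2 set-aside libraries. The groups overlapped, with a log2 fold change of -0.20 and a 95% interval of -0.64 to 0.23 (limma adjusted p = 0.414); without ex vivo CLP 1, the lowest of its group, it was -0.44 and passed (0.00571). Nr1h3, the LXR alpha receptor, was listed at 0 in all 8 libraries.

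Among the transport and storage genes, Npc2, the lysosomal carrier that hands over cholesterol, was the only one of 4 tested. Its values were 138, 178 and 156 in the retained ex vivo libraries, 153, 166 and 153 in the retained cCLP libraries, and 139 and 142 in the 2 set-aside libraries. The log2 fold change was 0.01 with a 95% interval of -0.27 to 0.28 (limma adjusted p = 0.97). Stard4, a cytosolic sterol carrier, was not tested and had 3.63, 1.27 and 4.31 in the retained ex vivo libraries, 9.57, 7.65 and 5.87 in the retained cCLP libraries, and 4.49 and 4.75 in the 2 set-aside libraries. Soat1, which esterifies cholesterol for storage, was not tested and had 8.46, 10.2 and 10.8 in the retained ex vivo libraries, 7.44, 7.65 and 9.22 in the retained cCLP libraries, and 8.98 and 10.4 in the 2 set-aside libraries. Its groups overlapped. Npc1, the lysosomal membrane partner of Npc2, was not tested and ranged from 7.62 to 12.1 and from 8.38 to 9.57 in the 6 libraries. Npc1 overlaps Rmc1 on the opposite strand.

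The 2 set-aside libraries were placed between the retained groups gene by gene. The position of a library was set to 0 at the retained ex vivo mean and to 1 at the retained cCLP mean, on the log2 scale. The library labelled ex vivo CLP 2 had a median position of 0.947 over the 12 mevalonate and sterol enzymes called higher, from 0.477 in Sc5d to 1.26 in Fdps. Over the 7 fatty acid enzymes called higher its median position was 0.646, with 0.412 in Fads2, 0.49 in Elovl6, 0.553 in Fasn, 0.646 in Fads1, 0.765 in Scd2, 0.987 in Acly and 0.991 in Acaca. Over all 1371 genes called higher it was 0.975, with quartiles of 0.77 and 1.17. Of the 7 fatty acid enzymes, 5 were thus below the lower quartile of all genes called higher, against 1 of the 12 mevalonate and sterol enzymes. Srebf1 had a position of -0.01 and Insig1 of 0.601.

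The library labelled cCLP 1 had median positions of 0.054, 0.173 and 0.036 over the same 3 sets. It was above all of ex vivo CLP 1, 3 and 4 in 5 of the 7 fatty acid enzymes, in 2 of the 12 mevalonate and sterol enzymes and in 273 of the 1371 genes. The ends of the scale were set by the other 6 libraries, and the positions rest on 1 library each. The difference between the branches was not tested.

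**Figure D4:**
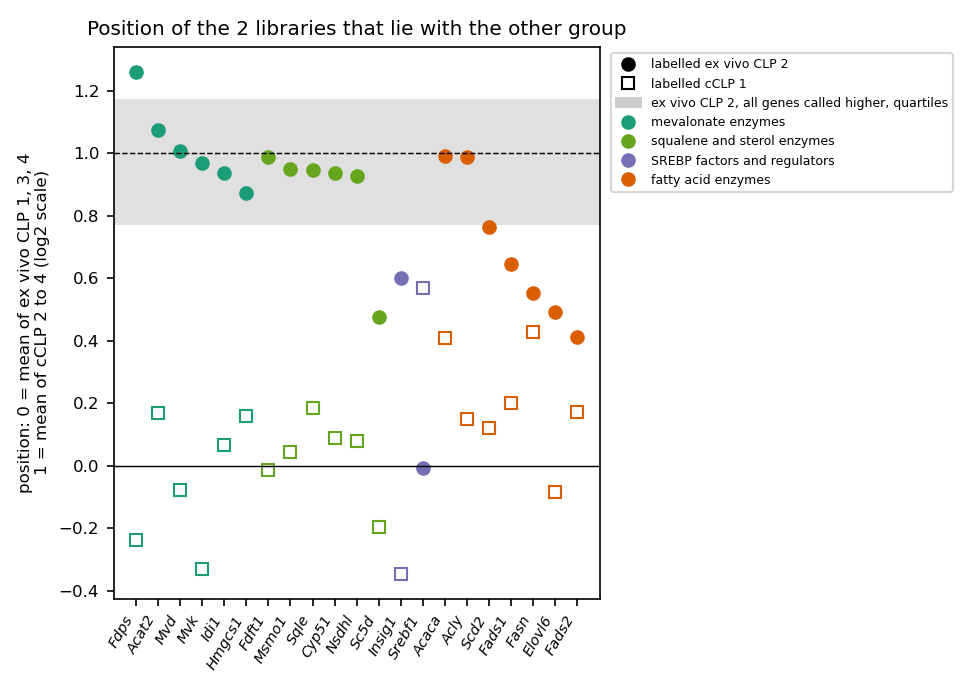
Position of the set-aside libraries, ex vivo CLP 2 (filled circles) and cCLP 1 (open squares), for each lipid gene called higher over 6 libraries, on a log2 scale where 0 is the mean of ex vivo CLP 1, 3 and 4 and 1 the mean of cCLP 2, 3 and 4; the grey band spans the quartiles of ex vivo CLP 2 over all 1371 genes called higher, and colours give the role group. The mevalonate and sterol enzymes other than Sc5d lie in or above the band, and Sc5d, Scd2, Fads1, Insig1, Fasn, Elovl6, Fads2 and Srebf1 lie below it.

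Other genes of the pathways were taken from lists chosen by function, and their counts are to be read against the 20.7% of all tested genes called higher and the 22.4% called lower. Of 14 other mevalonate, isoprenoid and sterol genes, 10 were tested, 4 rose and 1 fell, with a median log2 fold change of 0.20. Lbr, a lamin receptor with sterol reductase activity, fell by 0.54 (log2, limma adjusted p = 0.00824).

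Of 13 genes of sterol uptake and SREBP processing, 10 were tested, 1 rose and 4 fell, with a median of -0.03. Erlin1, an endoplasmic reticulum protein that restrains SREBP activation, met the minimum through the ex vivo libraries alone; it had 14.5, 14.0 and 19.4 in the retained ex vivo libraries and 8.50, 8.60 and 7.55 in the retained cCLP libraries. Of 36 other fatty acid and glycerolipid genes, 14 were tested, 5 rose and 1 fell, with a median of 0.14. Hacd1, a dehydratase of fatty acid elongation, rose by 1.07 (log2, limma adjusted p = 0.000992). Fads3, a sphingolipid desaturase, also met the minimum through the ex vivo libraries alone, with 13.3, 11.4 and 12.2 there and 3.19, 5.73 and 2.52 in the retained cCLP libraries.

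Of 12 LXR partners and targets, 5 were tested, 1 rose and 3 fell. Lpcat3, which remodels phospholipids, rose by 0.49 (limma adjusted p = 0.0132). Smpdl3a, a secreted phosphodiesterase that LXR induces in human macrophages, had 25.4, 43.2 and 33.0 in the retained ex vivo libraries, was listed at 0 in cCLP 2 and 4, and had 0.956 in cCLP 3. The 3 that fell (Abca7, Arl4c and Smpdl3a) all met the minimum through the ex vivo libraries alone, where they were high, so the count supports no direction. Of 18 other sterol transport and ester genes, 12 were tested, 1 rose and 4 fell, with a median of 0.15. Stard3, a late endosomal sterol carrier, rose by 0.34 (limma adjusted p = 0.0473). Osbpl1a, an oxysterol-binding protein relative, met the minimum through the ex vivo libraries alone, with 12.1, 11.4 and 10.8 there and 5.32, 5.73 and 5.03 in the retained cCLP libraries.

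Markers of myeloid cells, of the B lineage and of the cell cycle differed between the retained groups, in both directions for some lists. Of 9 adipocyte markers, 8 were listed at 0 in all 8 libraries, among them Adipoq and Plin1, and their summed scaled value was 0 to 0.956. Of 15 stromal and preadipocyte markers, 9 were listed at 0 throughout, the collagens and Pdgfra among them, with sums of 11.4 to 16.9 in the retained ex vivo libraries and of 11.5 to 22.3 in the retained cCLP libraries. Of the 15, 0 were tested, and 1 was higher and 2 were lower without overlap. Fn1 was higher, with 0, 0 and 0.718 in the retained ex vivo libraries and 11.7, 6.69 and 5.87 in the retained cCLP libraries. Vcam1 was lower, with 1.21, 2.54 and 2.15 against 0 in each retained cCLP library. Thy1 was also lower, with 1.21, 1.27 and 1.435 against 1.06, 0.956 and 0.838. The sums of 13 macrophage and monocyte markers were 230.8 to 351.8 in the retained ex vivo libraries against 57.4 to 95.6 in the retained cCLP libraries, with Csf1r at 0 in the latter and Ms4a7 at 0 in all libraries. Of 5 tested, 3 fell and 1 rose: Mrc1 was listed at 0 in the retained ex vivo libraries and had 21.3, 24.9 and 19.3 in the retained cCLP libraries. These 4 (Csf1r, Cd68, Lyz2 and Mrc1) met the minimum only through the group where they were high, so the count supports no direction. Ccr2 overlapped between the groups. The sums of 10 neutrophil markers were 1223 to 2992 against 261.5 to 285.1. Those of 10 B lineage markers were 903.4 to 2336 against 474.1 to 613.6. Dntt was the largest part of the ex vivo sums, with 2265, 1101 and 865 against 87.2, 254 and 111. Of 4 tested, Rag1 and Rag2 rose and Dntt and Cd79b fell. Rag1, Rag2 and Cd79b needed the group where they were high to meet the minimum. Without overlap, 5 of the 10 were higher in the retained cCLP libraries (Rag1, Rag2, Cd79a, Ebf1 and Pax5). The 3 lower were Dntt, Cd79b and Vpreb1. Among all tested genes, 27.6% were higher and 28.3% lower without overlap. The sums of 15 cycling genes were 1522 to 1731 against 1007 to 1141. Of 14 tested, 0 rose and 9 fell, where 20.7% of all tested genes were called higher and 22.4% lower. The part of these markers in the lipid results was not tested. In these bulk libraries, a change in the share of cells of a type and a change in RNA per cell cannot be told apart.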

How the data were processed

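Per the labels' protocols, RNA of sorted cells was extracted with TRIzol, and stranded total RNA libraries were made after depletion of ribosomal RNA. TopHat2, Bowtie2, HTSeq 1.0.6 and GRCm38 (mm10) are named in the submitters' processing notes. Their roles, the strand setting and the annotation release are not given in the sources used here. The deposited value per gene is a score, a whole number on an unnamed scale. Between ex vivo CLP 3 and 4 its dispersion index was 0.458 and between cCLP 3 and 4 it was 0.260, where simulated Poisson counts gave 0.995 and 0.997, so tests for counts were not used and depth and counting error are unknown.

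Each library was divided by a factor, its summed value multiplied by a trimmed mean ratio to a reference library. That ratio came from the trimmed mean of log ratios (30% of ratios and 5% of levels trimmed at each end). The factors were centred on their geometric mean. Genes with a scaled value of at least 10 in as many libraries as the smaller group were tested with limma 3.58.1 in R 4.3.3, on log2(scaled value + 1), with trend and robust moderation. Tests were two-sided, with Benjamini-Hochberg adjustment across every gene tested. Fold changes are cCLP minus ex vivo CLP and understate changes of low genes. The fit was tested on simulated data.

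The genes, lists and tests were chosen with earlier results of these data known. Values in every library are given for Insig1, Srebf1, Srebf2, Abca1 and the 3 genes per role group with the largest changes over 6 libraries, tested genes first. In other lists, the called genes with the largest change each way are named, except some that are not reported here. Of 39179 gene IDs, 37607 matched GENCODE vM21, and unmatched IDs held 0.31% of the summed values. No 2 libraries were identical (0 pairs). Alternatives were other scalings, pseudocounts of 0.5 and 5, no minimum or one of 20, protein-coding genes alone, no trend or robust step, a replicate block, and leaving out each library. Python 3.11.15, NumPy 2.4.6 and pandas 2.3.3 made the tables.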

Additional observations from a re-analysis of the deposited data

Results flagged for a closer look

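In the 84 groups of 4 libraries (42 genes in 2 groups), the library farthest from the other 3 was compared with Dixon's critical value at 95%. The groups of Scd1 and Nr1h3, listed at 0 in all 8 libraries, had no spread and were not compared. Chance gives about 1 in 20 of the groups compared. A total of 21 groups passed, 11 with the library labelled ex vivo CLP 2 and 10 with that labelled cCLP 1. Among scaled values in ex vivo CLP, the library labelled ex vivo CLP 2 stood high for Acat2 (38.15), Hmgcs1 (59.47), Mvd (20.2), Idi1 (44.88), Fdft1 (28.05), Sqle (22.44), Cyp51 (39.27), Tm7sf2 (7.855), Msmo1 (22.44), Acly (144.7) and Scd2 (190.8). Of these 11 genes, 9 are mevalonate or sterol enzymes. Among scaled values in cCLP, the library labelled cCLP 1 stood low for Mvd (5.7), Idi1 (12.35), Fdft1 (8.55), Cyp51 (16.15), Tm7sf2 (0.95), Msmo1 (4.75), Insig1 (51.3), Fads1 (21.85) and Fads2 (42.75), and high for Scap (29.45).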

How the results depend on the processing

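Over 8 libraries, each alternative and each library left out gave 0 lipid genes higher and 0 lower, replicate block included. Over 6 libraries, the count of genes higher was 21 and ranged from 16 (minimum of 20) to 27 (no minimum), and from 20 to 23 with 1 library left out. The count lower was 3, with 5 under no minimum, 1 with the replicate block and 1 to 4 with 1 library left out. Shares over all genes were not computed for these alternatives. The replicate block gave 20 higher over 6 libraries. Sc5d, Insig1, Elovl5 and Abcg1 were then not called (limma adjusted p = 0.0641, 0.14, 0.131 and 0.124) and Pmvk was (0.047). In that fit ex vivo CLP 1 and cCLP 2 were each alone in their block. The difference between groups therefore rested on ex vivo CLP 3 and 4 and cCLP 3 and 4. Of the 24 genes called, 18 kept their call in each of up to 16 settings; Abcg1, Elovl5, Insig1, Srebf1, Sc5d and Acaca lost it in at least 1. The cause was not tested. Directions that reversed were those of Npc2 and Nr1h2, which were not called. Over 6 libraries Npc2 had log2 fold changes of -0.024 with upper quartile scaling, -0.066 with the replicate block and -0.085 to 0.098 with 1 library left out. Over 8 libraries the range with 1 library left out was -0.036 to 0.086 for Npc2 and -0.203 to 0.039 for Nr1h2.

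The replicate numbers were not taken to pair the libraries: correlations of deviations between libraries of the same number were 0.594, 0.842, -0.574 and -0.857, from group means that include the 2 libraries lying with the other group. Depth is unknown, so no detection limit can be given for genes listed at 0. With 3 libraries a group, and those chosen after their likeness was seen, the p-values over 6 libraries cannot stand for the labelled comparison.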
